A study of Mus musculus with 8 samples.

Results

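The immediate early genes Fos, Fosb, Jun, Junb, Jund, Egr1, Atf3, Ier2, Dusp1 and Rgs1 were followed over 8 mouse kidney arrays. All probes whose annotated symbol is one of these 10 names were taken, which gave 12 probes (3 for Rgs1 and 1 for each other gene) of 25697 on the array. The set was chosen by the levels of Fos and Fosb on tumor 2, where both stood out, so those values are a description and are not tested. Of the 10 genes, 9 passed the filter on dim probes and Ier2 did not.

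The samples were 4 tumors from the kidneys of Lin28 transgenic mice and 4 control kidneys without tumor, with 1 Illumina array each. Tumor 1 and control 1 came from animals of 5 weeks, and tumors and controls 2 to 4 from animals of 4 months. The labels describe the tumors as Wilms tumors, a childhood cancer of the kidney whose tissue resembles the embryonic organ, and the replicates as biological. The sources used here do not give the promoter of the transgene, the strain or the genotype of the controls.

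Immediate early genes are switched on within minutes of a signal such as a growth factor or a stress, without the need for new protein. Proteins of the Fos and Jun families pair to form the transcription factor AP-1, and Egr1 is a zinc finger factor induced by the same MAP kinase pathways. Dusp1 removes the phosphates from MAP kinases and so turns the response down.

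The promoters of 4 members are shown because they carry the classical binding letters through which cyclic AMP and calcium signals can reach such genes. They were picked for these letters, whose part in the levels on tumor 2 was not tested. Sequences (RefSeq, GRCm38.p6) were at hand for 7 of the 10 members, and not for Egr1, Ier2 and Rgs1. They cover the 250 bases before the start of the gene, at chr12:85473640-85473889 (plus strand) for Fos, chr7:19310046-19310295 (minus strand) for Fosb, chr8:84978749-84978998 (minus strand) for Junb and chr17:26508473-26508722 (minus strand) for Dusp1. Capitals mark each TGACG, the core of the cAMP response element, on either strand.
Fos: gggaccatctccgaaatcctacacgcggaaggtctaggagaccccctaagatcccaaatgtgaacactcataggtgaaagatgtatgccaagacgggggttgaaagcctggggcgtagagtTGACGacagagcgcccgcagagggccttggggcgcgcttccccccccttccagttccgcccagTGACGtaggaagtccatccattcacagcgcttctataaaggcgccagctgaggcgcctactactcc
Fosb: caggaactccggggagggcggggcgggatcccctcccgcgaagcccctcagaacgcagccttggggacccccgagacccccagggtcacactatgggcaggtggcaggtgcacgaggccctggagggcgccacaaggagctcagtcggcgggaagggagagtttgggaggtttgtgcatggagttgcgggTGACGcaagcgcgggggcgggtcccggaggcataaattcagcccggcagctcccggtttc
Junb: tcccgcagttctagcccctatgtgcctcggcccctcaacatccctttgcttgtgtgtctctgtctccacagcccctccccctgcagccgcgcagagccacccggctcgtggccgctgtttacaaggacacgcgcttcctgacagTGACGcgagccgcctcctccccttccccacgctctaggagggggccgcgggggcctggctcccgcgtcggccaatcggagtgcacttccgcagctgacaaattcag
Dusp1: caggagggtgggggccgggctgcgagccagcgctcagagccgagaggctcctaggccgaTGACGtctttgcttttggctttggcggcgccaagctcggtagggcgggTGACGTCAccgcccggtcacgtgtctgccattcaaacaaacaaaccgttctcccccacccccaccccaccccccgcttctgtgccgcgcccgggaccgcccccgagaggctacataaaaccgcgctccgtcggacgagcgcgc
The core was present in 5 of the 7 promoters (Fos, Fosb, Junb, Dusp1 and Atf3, the last not shown) and in 17.8% of all 32851 promoter windows of this length. Jun, which was also higher on tumor 2 than on the other tumors, and Jund, which was not, held no core of these exact letters. Variants such as the TGACATCA in the Jun window were not searched for. Dusp1 alone held the full palindrome TGACGTCA (1.55% of all windows), which overlaps 2 of its 3 marked cores. Fosb alone held GCGGGGGCG, an Egr1 site (2.57% of all windows). The AP-1 site TGACTCA (4.46% of all windows) and the CArG box of serum response factor (1.47% of all windows) were found in 0 of the 7 windows, on both strands. Sites more than 250 bases before the start were not searched, and neither were the promoters of Egr1, Ier2 and Rgs1. The 0 therefore does not show that these genes lack such sites. A match of letters is a description and not a binding event.

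The level of a probe is given as its intensity, after the authors' background subtraction and scaling, so values near or below 0 are at background. The limit of detection was 3 times the noise of an array, a signal of 27.6 on tumor 1 and of 10.7 to 16.5 on the other arrays. By this limit 44.2% to 55.3% of probes were above background, depending on the array. Changes between groups are on the log2(intensity + 16) scale and understate those of dim genes. Wt1, a kidney development factor, read 2488 to 3770 in tumors and 96.2 to 211 in controls. Six2, which marks nephron progenitors, was above background in 4 of 4 tumors and 0 of 4 controls. Slc34a1 and Umod of the nephron tubule read 11797 and 9586 on tumor 1, against 344 to 1369 and 121 to 1273 on tumors 2 to 4. Neither Lin28a probe was above background on any array, and the sources used here do not say whether they match the transgene. Xist, which female cells transcribe from their silenced X chromosome, read 155 to 301 in tumors and 34.8 in control 2, the only control above background. The Y-linked gene Kdm5d was at 44.9, 44.7 and 53.7 in controls 1, 3 and 4, and was under background in control 2 and in all tumors. The labels give no sex, and its part in the differences between the groups was not tested.

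**Figure D1:**
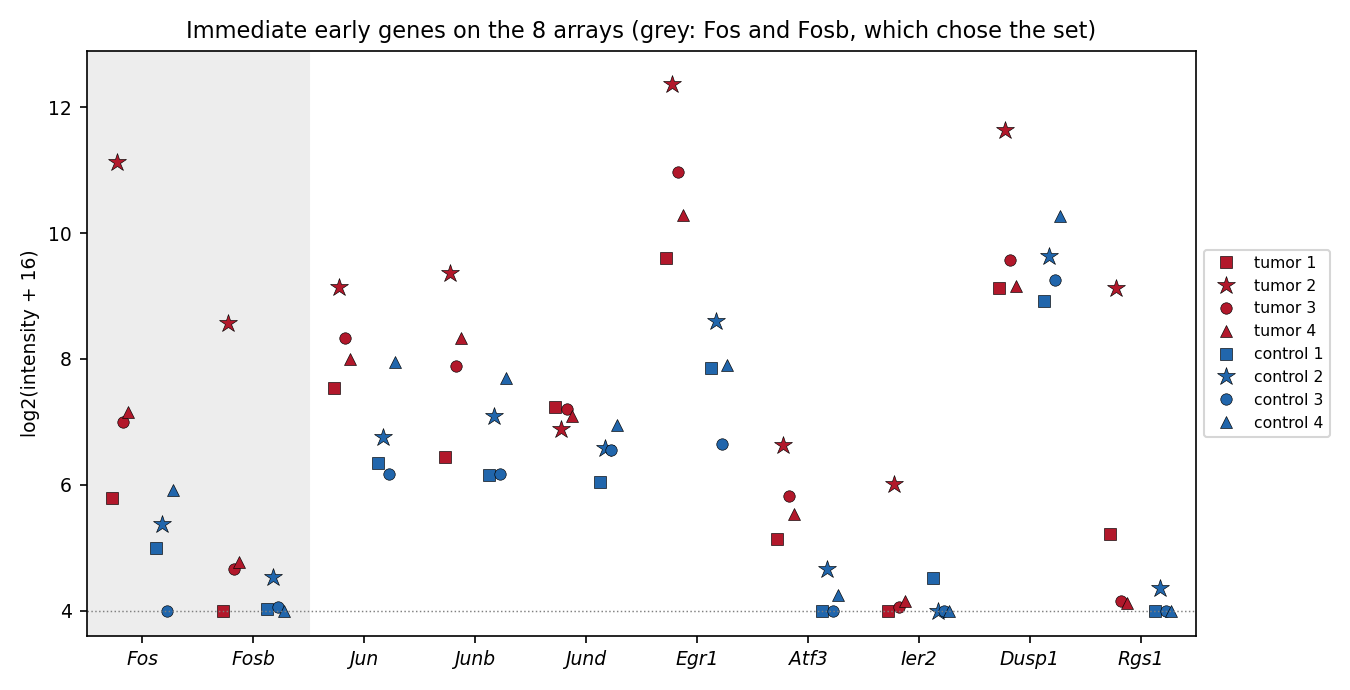
Level of each of the 10 genes on each array as log2(intensity + 16), with tumors in red, controls in blue and the shape giving the replicate number (Rgs1 by its brightest probe). The star of tumor 2 lies highest for every gene except Jund, and the dotted line at 4 is the lowest value that can be reached.

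Fos, the founding member of its family and a partner that needs Jun proteins to bind DNA, read 39.0, 2233, 112 and 127 on tumors 1 to 4. In controls 1 to 4 it read 15.8, 25.7, -1.90 and 44.6. Tumor 2 was thus far above all other arrays, tumors 3 and 4 lay above all controls, and tumor 1 lay below control 4. On the log2 scale Fos on tumor 2 was 4.13 above the median of the other 3 tumors, a description of the value that chose the set. On the arrays without tumor 2, Fos rose by 1.58 ± 0.51 log2 units (SE; 2.98-fold, 3 tumors and 4 controls, limma adjusted p = 0.0402). In that comparison 30.5% of all 11413 tested units (a unit is a gene with a symbol, or a probe without one) were called higher and 10% lower. Leaving out control 1, 2 or 3, or tumor 3 or 4, as well ended the call for Fos (change 1.22 to 1.68, adjusted p = 0.0537 to 0.136). The call ended with 4 other scalings or background corrections too (adjusted p = 0.0705 to 0.241).

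Fosb, a close relative of Fos with the same kind of partners, read 366 on tumor 2. On the other tumors it read -23.0, 9.40 and 11.4, and in controls 0.20, 7.10, 0.70 and -1.70. It was above background on tumor 2 and on no other array, so no change between the groups is given. Fosb passed the filter on dim probes only through tumor 2.

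Jun, the partner that can also pair with itself, read 169, 551, 308 and 240 on tumors 1 to 4 and 65.4, 92.4, 56.2 and 232 on controls 1 to 4. Control 4 lay above tumor 1 and close to tumor 4, so the groups overlapped. With all arrays Jun rose by 1.44 ± 0.45 log2 units (2.72-fold, n = 4 each, limma adjusted p = 0.0299). In this comparison 32.2% of all units were called higher and 12.2% lower. Leaving out any single array other than tumor 1 or control 4 ended the call (change 1.15 to 1.53, adjusted p = 0.0515 to 0.0841), for example at 1.15 ± 0.44 without tumor 2 (adjusted p = 0.0703). It also ended with 4 other scalings or background corrections (change 0.86 to 1.19, adjusted p = 0.0668 to 0.112) and with no filter on dim probes (adjusted p = 0.0782).

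Junb, a Jun protein that often restrains proliferation, read 70.7, 642, 222 and 306 on the tumors and 55.0, 121, 55.8 and 192 on the controls. Tumor 1 lay among the controls and tumor 2 above all arrays. The difference of 1.23 ± 0.60 log2 units (SE, n = 4 each) did not pass with limma (adjusted p = 0.128), and it was 0.78 ± 0.55 without tumor 2 (adjusted p = 0.288). It passed without tumor 1 (1.75, adjusted p = 0.0158), on the arrays of 4 months alone (1.54, 0.0426) and with array weights (1.56, 0.00419).

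Jund, the Jun protein that most cells make without a stimulus, varied less between arrays. It read 135, 102, 131 and 121 on the tumors and 49.9, 79.8, 77.8 and 107 on the controls. Tumor 2 was the lowest tumor here and lay below control 4. The difference of 0.58 ± 0.22 log2 units (SE, n = 4 each) did not pass with limma (adjusted p = 0.0589), although it passed without control 4 (0.71, adjusted p = 0.0344). The median unit was 0.35 higher in tumors, which leaves 0.23 for Jund relative to all units, and with cyclic loess its change was 0.06.

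Egr1, the zinc finger factor of the set, was called higher in tumors in all fits that were run. It read 759, 5262, 1990 and 1236 on tumors 1 to 4 and 216, 372, 84.7 and 222 on controls 1 to 4. Every tumor lay above every control, which was the case for 30.1% of all units. Egr1 rose by 3.05 ± 0.60 log2 units (8.30-fold, n = 4 each, limma adjusted p = 0.00459). Without tumor 2 the rise was 2.53 ± 0.49 log2 units (5.79-fold, 3 tumors and 4 controls, adjusted p = 0.00671). It was called under all 23 alternatives with all arrays as the starting point (change 2.53 to 3.66) and under all 22 without tumor 2 (2.17 to 3.6).

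Atf3, a stress-induced factor that pairs with Jun proteins, read 19.1, 82.7, 40.8 and 30.5 on the tumors. The controls read -2.20, 9.40, -3.30 and 2.90, all at or under background, as was tumor 1. Every tumor lay above every control in signal, and the difference was at least 1.92-fold (n = 4 each). Atf3 passed the filter on dim probes only through the tumors, so a difference was built into its being tested and no p is given.

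Dusp1, the MAP kinase phosphatase, was bright on all arrays and did not separate the groups. It read 541, 3170, 748 and 557 on tumors 1 to 4 and 466, 784, 593 and 1217 on controls 1 to 4. Control 4 lay above 3 of the 4 tumors, and tumor 2 above everything else. The difference was 0.36 ± 0.56 log2 units with all arrays (SE, limma adjusted p = 0.632) and -0.23 ± 0.33 without tumor 2 (adjusted p = 0.602), so its sign turned with that array.

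Ier2, a small nuclear regulator induced by growth factors, read 48.4 on tumor 2 and at most 7 on the other 7 arrays. Tumor 2 was the only array on which it was above background. Rgs1, which shortens the signal of G protein-coupled receptors and is best known from leukocytes, had the same shape by its brightest probe. That probe read 541 on tumor 2, 21.1, 1.80 and 1.30 on the other tumors and -4.20 to 4.40 in controls. The other Rgs1 probes read 155 and 184 on tumor 2 and at most 15.9 on any other array, a value of tumor 3 that lay just above its background. Rgs1 also passed the filter only through tumor 2, and no change between the groups is given for it.

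Of the 7 tested members other than Fos and Fosb, 3 were called higher and 0 lower, where 32.2% of all units were called higher and 12.2% lower. These 7 include Atf3 and Rgs1, which passed the filter through the tumors alone. Over the other 5 (Jun, Junb, Jund, Egr1 and Dusp1), 2 were called higher with all arrays and 1 without tumor 2, shares near those of all units. None of the 7 pointed lower, so the count lower is 0 at an unadjusted p under 0.05 too. With cyclic loess 2141 units were called higher and 2135 lower, in place of 3677 and 1387. Without tumor 2 the count over the 7 was 2 of 7 higher, against 30.5% of all units. All 4 tumors lay above all 4 controls for 2 of the 7 (Egr1 and Atf3), against 30.1% of units, and below them for 0 of the 7, against 10.2%. Without tumor 2 all tumors lay above all controls for 3 of the 7, with Jund added, against 34.8%.

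**Figure D2:**
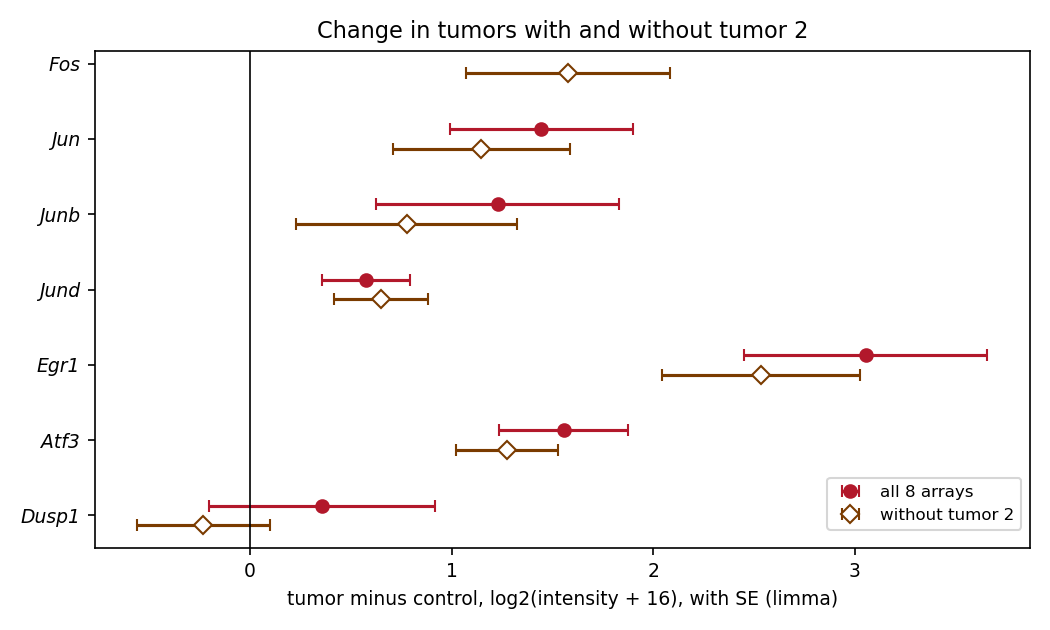
Tumor minus control on the log2(intensity + 16) scale with its standard error, from limma, with all 8 arrays (filled circles) and without tumor 2 (open diamonds). Fos is drawn only without tumor 2; Egr1 lies farthest from 0 in both fits, and Dusp1 falls on either side of 0. The controls of Atf3 are at background, so its plotted change is not a measured size.

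The members also differed among the tumors. Among the 7 tested members other than Fos and Fosb, 6 were at least 2-fold higher on tumor 2 than the median of the other tumors, where 6.58% of all units were. The same share for tumors 1, 3 and 4 against the rest was 8.29%, 2.53% and 3.47% of units. Tumor 2 was the highest of the 8 arrays for 6 of the 7, against 16.9% of units. Without Rgs1, which needed tumor 2 to pass the filter, the 2-fold count was 5 of 6. In order of this difference on the log2 scale, Dusp1 exceeded the other tumors by 2.47, Egr1 by 2.08, Junb by 1.47, Jun by 1.15 and Atf3 by 1.09, and Jund differed by -0.32. The median over all units was -0.12. Dusp1 ranked 94th and Egr1 153rd of all 11413 units by this measure, while Atf3 ranked 644th. The members were chosen with results of these arrays known, so these counts and ranks describe tumor 2 and carry no test.

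**Figure D3:**
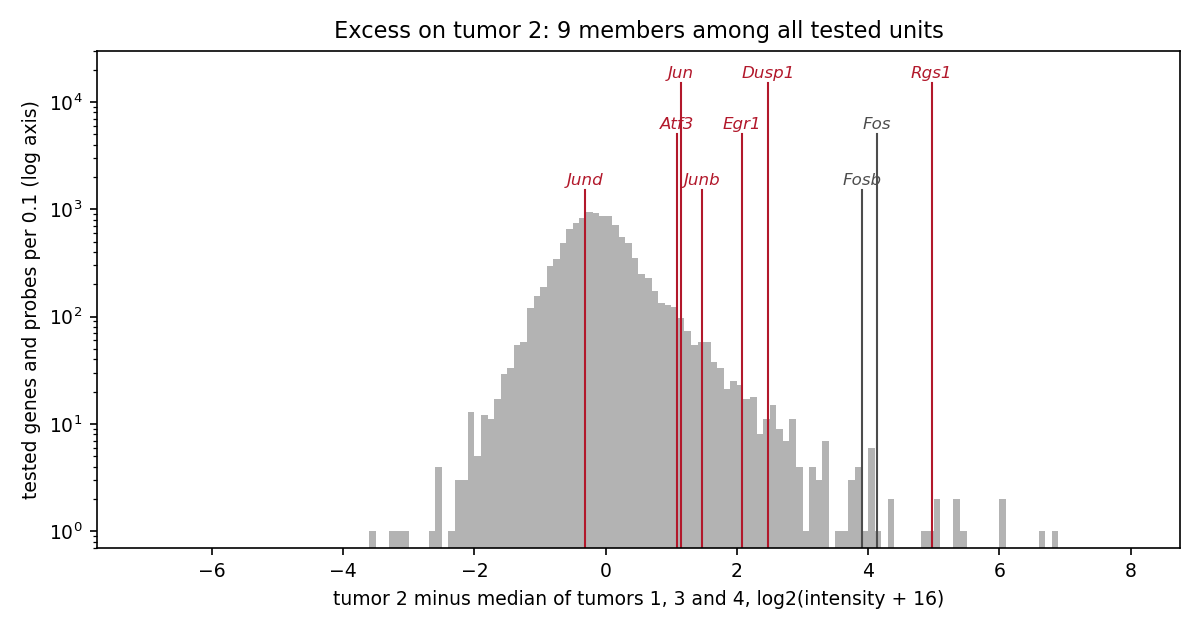
Difference between tumor 2 and the median of tumors 1, 3 and 4 for all 11413 tested units (grey histogram, log count axis), with a line for each tested member. Jund at -0.32 lies in the middle of the histogram and the other 8 members lie above 1, with Fos and Fosb, whose values on this array chose the set, in dark grey.

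Order at the low end was shared as well. Tumor 1, from the animal of 5 weeks, was the lowest tumor for 7 of the 9 tested members, which was the case for 33.3% of all units, and Jund and Rgs1 were the exceptions. Fosb on tumor 1 was below 0, so its place has no weight. Control 4 was the highest control for 5 of the 9 (Fos, Jun, Junb, Jund and Dusp1), against 32.1% of all units. With 1 tumor and 1 control of 5 weeks, age cannot be told apart from the animal. Tumor 1 was also the tumor with high Slc34a1 and Umod, as given above. Across the tested units, which are not independent, its log2 levels correlated at 0.85 to 0.88 with the controls, where tumors 2 to 4 had 0.74 to 0.83. The part of kidney tissue in the low values of tumor 1 was not tested.

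The summed level of white blood cell markers moved with the same arrays. Of 20 leukocyte markers with a probe 14 passed the filter, and their summed intensity was 3752, 24786, 8437 and 7385 on tumors 1 to 4 and 1209, 2746, 1471 and 6669 on controls 1 to 4. By this sum tumor 2 was the highest array, tumor 1 the lowest tumor and control 4 the highest control, as for Fos, Jun, Junb and Dusp1. Lyz2 (9841) and Laptm5 (6052) were the largest parts of the sum on tumor 2. On tumor 2, 9 of the 14 were at least 2-fold above the median of the other tumors (64.3%, against 6.58% of all units). Lyz2, the lysozyme of macrophages and neutrophils, read 9841 on tumor 2 and 1295 to 2254 on the other tumors. Fcer1g, a signalling chain of Fc receptors, read 1770 on tumor 2 and at most 8.80 on the other tumors. Among the controls it read 161 on control 2, and it was under background on all arrays besides that and tumor 2. Tyrobp, an adaptor of myeloid receptors, read 939 on tumor 2 and 169 to 313 on the others. S100a8 and S100a9, the calgranulins of neutrophils, read 1992 and 773 on tumor 2, 1542 and 555 on tumor 4, and 1202 and 452 on control 4. Taken singly, 9 of the 14 markers were highest on tumor 2. Cd52 was highest on tumor 3 (1781, against 1420 on tumor 2) and Cd14 on control 4 (1560, against 749 on tumor 2). Of the markers that define white blood cells and T or B cells, Ptprc, Cd4, Cd8a and Ms4a1 were above background on no array. Cd3d was above background on tumor 2 (26.1) and control 2 (22.9), Cd3e on controls 2 and 4, and Cd79a and Nkg7 on control 2. Cd79b, a chain of the B cell receptor, read 85.3, 186, 118 and 124 on the tumors and 7.90 to 64.8 on the controls by its brighter probe, and rose by 1.86 ± 0.38 log2 units (limma adjusted p = 0.00542). Between tumors and controls 5 of the 14 rose (35.7%, against 32.2% of all units) and 0 fell (against 12.2%), among them Lyz2 by 3.04 ± 0.73 (limma adjusted p = 0.0103) and Cxcr4, a chemokine receptor, by 3.00 ± 0.32 log2 units (adjusted p = 3.16e-04). In whole tissue, more cells of a type and more RNA per cell cannot be told apart, and the part of these markers in the members' levels was not tested.

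**Figure D4:**
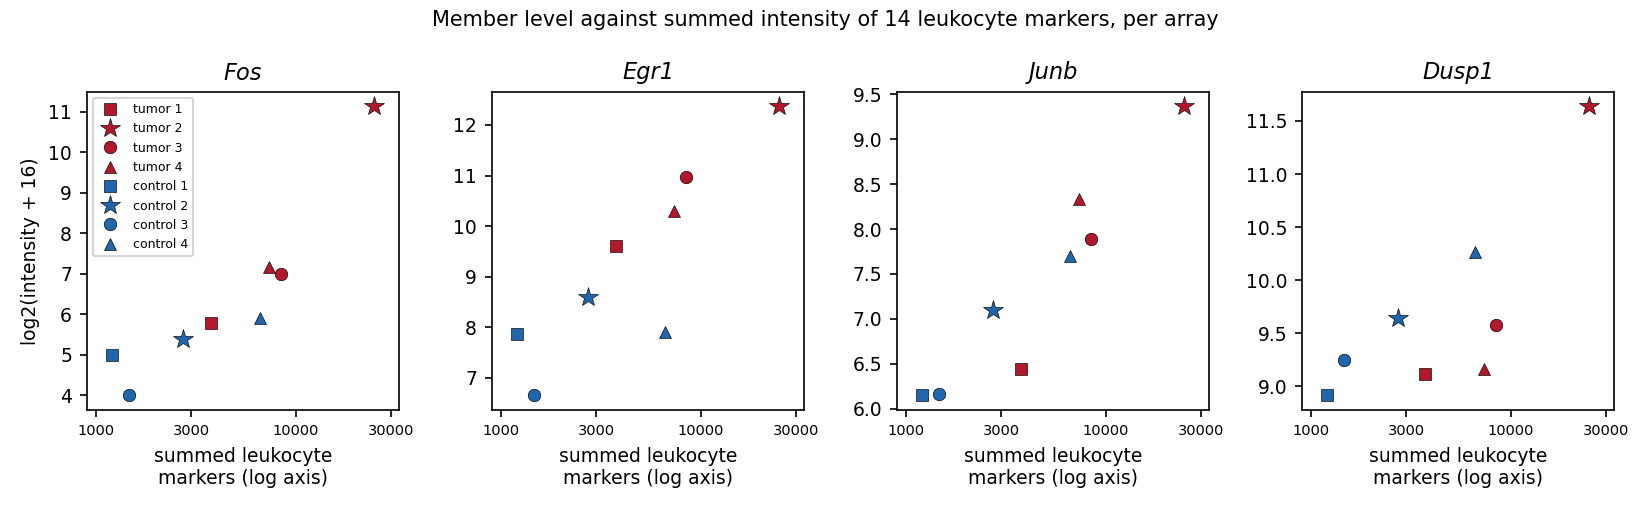
Level of Fos, Egr1, Junb and Dusp1 as log2(intensity + 16) against the summed intensity of 14 leukocyte markers on a log axis, with 1 point for each array. Tumor 2 lies at the top right of all 4 panels, while for Dusp1 control 4 lies above tumors 1, 3 and 4.

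The 5 named units whose log2 values correlated most with those of Fos over the 8 arrays were Ly9, Fabp5, Tlr7, Vav1 and Ccl7, each with a Pearson correlation of 0.99. All 8 arrays share the split into tumors and controls and the height of tumor 2, so these values only describe likeness. Without tumor 2 the correlations were 0.96 for Ly9, 0.95 for Fabp5, 0.98 for Tlr7, 0.98 for Vav1 and 0.95 for Ccl7. Ly9, Fabp5 and Ccl7 were under background on tumor 1 and on all controls, so their correlations rest largely on background values. On tumors 3 and 4 Ly9 and Fabp5 read 13.4 to 17.4, just above background. Tlr7, a receptor for RNA in the endosomes of immune cells, read 241 on tumor 2, 45.8 to 72.0 on the other tumors and 13.1 to 40.7 in controls. Ccl7, a chemokine that attracts monocytes, read 322 on tumor 2 and at most 31.8 elsewhere. Among the members the correlation with Fos was 0.93 for Fosb, 0.91 for Junb, 0.91 for Egr1, 0.91 for Atf3, 0.89 for Jun, 0.87 for Rgs1, 0.82 for Dusp1 and 0.39 for Jund. Without tumor 2 it was 0.19 for Dusp1 and 0.09 for Rgs1, but 0.92 for Jun and 0.91 for Egr1.

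Other genes of the early response were looked at in lists by role. The calls in each list stand against 32.2% of all units called higher and 12.2% called lower. In 7 of the 10 lists the mean control level of 2 genes lies under the filter on dim probes. These genes were therefore tested only because their mean was higher in the tumors. Some of them, such as Nkg7, were above background on no tumor. At an unadjusted p under 0.05 the lists of MAP kinases, phosphatases, heat shock genes, leukocyte markers and Rgs genes with 0 fallen genes had 0 lower as well. A list of 21 measured further early genes holds mostly transcription regulators, and its Srf and Maff each stand in another list too. Of the 21, 5 rose (23.8%, against 32.2% of all units) and 1 fell (4.76%, against 12.2%) with limma. Their median change was 0.50, against 0.35 over all units. Of the risen genes 1 passed the filter only through the tumors. Egr2, a relative of Egr1, read 89.3, 258, 252 and 102 on tumors 1 to 4 and 2.90 to 18.4 in controls, and rose by 2.87 ± 0.37 log2 units (adjusted p = 7.25e-04). Srf, the serum response factor that drives many of these genes, read 556 to 662 in tumors and 130 to 218 in controls and rose by 1.76 ± 0.21 (adjusted p = 4.80e-04). Klf9, a Krüppel-like factor that answers to glucocorticoids, fell by 1.29 ± 0.23 (adjusted p = 0.00330). On tumor 2, 5 of the 21 (23.8%) were at least 2-fold above the median of the other tumors, against 6.58% of all units.

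Of 26 measured effectors that are not transcription factors 10 rose (38.5%, against 32.2% of all units) and 1 fell (3.85%, against 12.2%). Of the risen genes 1 passed the filter only through the tumors. Without tumor 2 the counts were 5 (19.2%, against 30.5%) and 1. Their median change was 0.91, and 0.62 without tumor 2. Socs3, an inhibitor of cytokine receptors, rose by 2.54 ± 0.70 log2 units (limma adjusted p = 0.0176), a call lost without control 1 (2.14, adjusted p = 0.0507) or control 3 (2.35, 0.0512). Ccl4, a chemokine of macrophages and T cells, rose by 2.24 ± 0.55 (adjusted p = 0.0108). Errfi1, a feedback inhibitor of the EGF receptor, fell by 1.30 ± 0.25 (adjusted p = 0.00443). On tumor 2, 11 of the 26 (42.3%, against 6.58% of all units) exceeded the other tumors at least 2-fold. Ccn1, a matrix-bound signalling protein, read 661 on tumor 2 and 75.1 to 132 on the other tumors. Ccl2 and Ccl3, chemokines for monocytes and other leukocytes, read 93.5 and 126 on tumor 2 and at most 21.6 and 23.8 on the others.

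Genes that act before or against the response were read next. Of 20 MAP kinases, their activators and their target factors 8 rose (40%, against 32.2% of all units) and 0 fell (median 0.57). On tumor 2, 0 of 20 exceeded the other tumors at least 2-fold, against 6.58% of all units. At that share a list this short would hold few such genes, so a count of 0 says little. Nras, a small GTPase at the head of the cascade, rose by 1.51 ± 0.24 log2 units (limma adjusted p = 0.00178). Of 13 MAP kinase phosphatases and feedback inhibitors besides Dusp1 4 rose (30.8%, against 32.2%) and 0 fell (median 0.51). Without tumor 2, 2 rose. The 2-fold count on tumor 2 was 0 of 13, again against 6.58% of all units and with the same limit. Dusp2, a nuclear phosphatase first known from T cells, read 51.1 to 89.7 in tumors and at most 4.70 in controls, which were all under background, a difference of at least 3.03-fold. It passed the filter only through the tumors, so no p is given. Spred1, an inhibitor of Ras signalling, rose by 1.15 ± 0.25 (adjusted p = 0.00650).

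Of 11 other AP-1 and bZIP factors 4 rose (36.4%, against 32.2% of all units) and 0 fell (median 0.50). Of the risen genes 2, Batf and Batf3, passed the filter only through the tumors. With all arrays 1 of the 11 was lower at an unadjusted p under 0.05. Without tumor 2, 3 rose. On tumor 2, 0 of 11 exceeded the other tumors at least 2-fold, against 6.58% of all units, where a count of 0 again says little. Batf, an AP-1 factor of lymphocytes, was at least 1.96-fold higher in tumors, through which alone it passed the filter, so no p is given. Atf4, a factor of the amino acid response, rose by 2.00 ± 0.60 log2 units (adjusted p = 0.0250), but 6 of the 8 fits that each omit 1 array ended the call, tumor 1 and control 2 being the exceptions (highest adjusted p = 0.0713). Of 5 further G protein regulators of the Rgs1 family 3 rose with limma (60%, against 32.2% of all units) and 0 fell (against 12.2%). Their median was 0.89, and 1 of the risen genes passed the filter only through the tumors. Rgs5, a marker of pericytes, read 233, 665, 122 and 269 on the tumors and 0.50 to 67.5 in controls and rose by 3.15 ± 0.58 (adjusted p = 0.00344). Rgs16, known from activated lymphocytes and other stimulated cells, was that gene, at least 3.57-fold higher in tumors, and read 442 on tumor 2 against 17.5 to 85.1 on the other tumors. Rgs4, another regulator of this family, read 421 on tumor 2 and at most 159 on the others.

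Heat shock and hypoxia genes answer to other kinds of stress. Of 11 heat shock genes 2 rose (18.2%, against 32.2% of all units) and 0 fell (median 0.12). Without tumor 2, 0 were called (1 higher at an unadjusted p under 0.05). On tumor 2, 0 of 11 exceeded the other tumors at least 2-fold, against 6.58% of all units, where a count of 0 again says little. Hspa5, Hsp90aa1 and Dnaja1 read at most 29.7, 34.6 and 32.5 on any array, near background, which limits these counts. The risen members were Hspb1, a small heat shock protein (1.25 ± 0.42, limma adjusted p = 0.0389), and the co-chaperone Dnajb1 (0.70 ± 0.25, adjusted p = 0.0485). Both calls were lost without tumor 2 (adjusted p = 0.0932 and 0.110), and without other single arrays too. Of the 8 fits that each omit 1 array, 5 ended the call for Hspb1 and 6 that for Dnajb1. Of 11 hypoxia genes 1 rose (9.09%) and 2 fell (18.2%, against 12.2%) (median 0.19). Pdk1, a kinase that holds pyruvate out of mitochondria, rose by 1.38 ± 0.43 log2 units (adjusted p = 0.0279, 0.0590 without tumor 2). Its call ended in 6 of the 8 fits that each omit 1 array. Ndrg1 fell by 2.44 ± 0.61 (adjusted p = 0.0118) and Car9, a carbonic anhydrase, by 1.59 ± 0.48 (adjusted p = 0.0257, lost without control 1, control 3 or tumor 3, at up to 0.0729). On tumor 2, 3 of the 11 (27.3%, against 6.58% of all units) exceeded the other tumors at least 2-fold. Egln3, an oxygen-sensing hydroxylase, read 613 there and 73.9 to 230 on the other tumors. Of 9 tissue markers 4 rose (44.4%, against 32.2% of all units) and 4 fell (44.4%, against 12.2%). Of the risen markers 2, Six2 and Cited1, passed the filter only through the tumors. Among the 9 markers Col1a1, a collagen of stroma, rose by 4.6 ± 0.39 log2 units (limma adjusted p = 1.24e-04). It read 3164 on tumor 2 and 829 to 1376 on the other tumors.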

How the data were processed

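Total RNA of 8 mouse kidney samples was hybridised to Illumina arrays. The deposited values are intensities on a linear scale. Per the values themselves, the authors had subtracted background (20.2% to 28.4% of each array lies below 0) and scaled every array to a mean of 274 over 25697 probes; the sources used here do not name the method. A second deposited table was not used, since its 16 columns name no sample. The number of arrays limits the precision.

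Changes were taken on log2(intensity + 16), with values below 0 counted as 0. Noise was a scaled median size of the values below 0. A filter at the 40th percentile of the mean log2 level (4.49) left 15418 probes, and each gene was represented by its brightest, which gave 11413 units. Symbols came from the platform annotation (23978 probes with 1 symbol, 1719 with none), matched to GRCm38.p6 gene numbers (23962 matched, 0 changed). An "at least" fold divides the brighter group's mean (from log2 levels) by that of the dimmer group with signals under the detection limit raised to it.

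The comparison of tumors with controls used limma 3.58.1 (R 4.3.3) without covariates, two-sided, with Benjamini-Hochberg adjustment over all units at 0.05, with all arrays and without tumor 2. Tested on simulated data, the fits recovered known changes, all larger than that of every member except Egr1. Recovery of smaller changes was not tested. Genes named were the members, the 5 most like Fos, and for each of 10 lists the 2 largest called rises and falls and the genes at least 4-fold higher on tumor 2; Six2, Lin28a, Xist, Kdm5d and the lymphocyte markers were added after their values were seen. Alternatives changed the scaling, background correction, value added, filter, probe choice, variance model, covariate and arrays. The members and lists were chosen with earlier results of these data known. Same-numbered samples were not treated as pairs, since not every correlation of their deviations passed 0.1 (0.21, 0.20, 0.11 and 0.07).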

Additional observations from a re-analysis of the deposited data

Results flagged for a closer look

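Among the probes of the members and of the other named genes, some had 1 array far from the other 3 of its group. Dixon's criterion compares the gap to the nearest array with the range of the group, and of 100 groups of 4 looked at 8 exceeded its 95% critical value. Chance gives about 1 in 20, but the 8 are not set against that rate, since Fosb and Ier2 belong to a set chosen for tumor 2 and Fcer1g was named for its height there. Fosb on tumor 2 (366.5) and Ier2 on tumor 2 (48.4) were high among the tumors, and the former is a value that chose the set. Fcer1g stood apart on tumor 2 (1769.9) and, among the controls, on control 2 (160.8). Lyz2 was high on control 4 (1087.9). Ndrg1 was low on control 2 (3948.1), and Nras (2118.3) and Atf4 (109.4) were low on tumor 1.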

How the results depend on the processing

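Scaling shifted all genes: the median unit was 0.35 higher in tumors with the authors' scaling, 0.04 with quantile normalization, 0.03 with normexp and quantile normalization, 0.09 with arrays scaled to the same median and -0.01 with cyclic loess. Units called higher were 3677 with all arrays and 2141 with cyclic loess, 2339 with normexp, 2156 with quantile normalization and 5532 with array weights (2651 to 4068 when 1 array was left out). Units called lower were 1387, with 2135 under cyclic loess and 2112 under array weights (991 to 1678 when 1 array was left out). Without tumor 2, 3485 units were called higher, with 5714 under array weights, 2256 under the same median, 1948 under cyclic loess, 2239 under normexp and 1851 under quantile normalization (2221 to 3993 when 1 more array was left out). Units lower there were 1146, with 2156 under array weights, 1808 under the same median, 1926 under cyclic loess and 721 with no filter (442 to 1526 when 1 more was left out). The called members were 3, or 5 with array weights, and 2 with quantile normalization, normexp, the same median, cyclic loess, no filter or probes above background on at least 4 arrays (2 to 4 when 1 array was left out). Fos without tumor 2 stayed higher in all 22 alternatives and was called in 10. It missed the threshold with 4 added before log2 (2.24, adjusted p = 0.0744), the same median (1.35, 0.0705), cyclic loess (0.99, 0.137), no filter (1.58, 0.109), normexp (0.63, 0.108) and quantile normalization (2.27, 0.241). When 1 more array was left out its change ran from 1.22 to 2.01 (limma adjusted p = 0.0143 to 0.136). The causes were not tested.

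The sign of Dusp1 turned without tumor 2 (-0.23, in a range from there to 0.61 when 1 array was left out), and on those arrays again with array weights (0.17) and without control 4 (0.018, in a range from -0.43). That of Fcer1g turned without tumor 2 (-0.67, in a range up to 1.84). On the arrays without tumor 2, Fosb turned with cyclic loess (-0.031) and normexp (-0.00194), and Rgs1 with quantile normalization (-0.52). The count of members other than Fos and Fosb at least 2-fold higher on tumor 2 ran from 4 to 7 over its alternatives. With the replicate number as a block, Fos without tumor 2 changed by 1.68 (limma adjusted p = 0.0531), Junb with all arrays by 1.23 (adjusted p = 0.0385), and 3 of 4 tumors correlated best with the control of their number. Fosb, Atf3 and Rgs1 gave no value with probes above background on at least 4 arrays. Signal over background limits Fosb, Ier2, Rgs1 (by its brightest probe) and Atf3, which were above background on 1, 1, 1 and 3 arrays.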
